A study of Sus scrofa with 22 samples.

Results

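The heat shock proteins and other chaperones of the pig were followed in cloned and fertilized fetuses and blastocysts. Members were the genes whose symbols begin with HSP, DNAJA, DNAJB, DNAJC, CCT, BAG or PDIA followed by the family's number or letter, together with CALR and CANX, and 83 of the 14389 genes with a matched record fit this rule. They comprise 3 Hsp90 genes, 13 Hsp70 and Hsp110 genes, 35 J proteins, 9 genes of the cytosolic chaperonin, 2 of the mitochondrial chaperonin, 8 small heat shock proteins, 5 disulfide isomerases, 2 lectin chaperones, 5 nucleotide exchange factors and HSPBAP1, which binds HSPB1. By the place where their protein acts, 15 were put in the endoplasmic reticulum (ER), 6 in mitochondria and 62 in the cytosol or elsewhere. A further 13 annotated symbols that fit the rule were not analysed here: BAG3, BAG5, DNAJB14, DNAJB3, DNAJB7, DNAJB8, DNAJC10, DNAJC11, DNAJC30, DNAJC5, DNAJC5G, HSPA4L and HSPG2.

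Chaperones bind unfolded protein and help it fold, refold or reach the organelle or protease where it is needed. Hsp70 proteins do this in cycles of ATP hydrolysis that J proteins start and nucleotide exchange factors reset, while Hsp90 and the barrel-shaped chaperonins take on later folding steps. The cytosol, the ER and the mitochondrial matrix each hold a set of their own. Unfolded protein in the cytosol induces genes through HSF1, and unfolded protein in the ER induces others through ATF6, XBP1 and ATF4, the unfolded protein response.

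The fetal samples were body tissue from day 30 and day 35. At each day there were 2 libraries titled abnormal, 3 titled normal and 2 from naturally fertilized (NF) fetuses, 14 in all. The series is described as cloned and naturally fertilized fetuses, so the samples not marked NF are taken as clones. All 14 were labelled male except 1 female NF library at day 30. The blastocysts were grown in vitro to day 6, with 2 libraries in each of 4 groups: WT, XIST-KO and WT+Kdm4A, all labelled male, and IVF, labelled as a pool of both sexes. The first 3 groups are taken as cloned and IVF as fertilized in vitro, as the series describes its embryos. XIST is the RNA that silences an X chromosome and KDM4A is a histone demethylase; the labels do not say how either was altered, how many embryos or cells made a library, or which cell line served for cloning. Neither gene had a matched record, so the alterations could not be checked. Nothing in the labels says that replicates came from separate animals, and p-values then measure only the spread between these libraries. "Body tissue" held markers of many cell types, with neuron, skeletal muscle, heart, endothelium, fibroblast and cartilage genes found in every fetal group. In bulk samples, fewer cells of a type and less RNA per cell cannot be told apart.

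Libraries held 588882 to 11535824 expected counts in fetuses and 6448823 to 20352041 in blastocysts. The second abnormal library of day 35 was the shallowest, with 588882, and stood apart from its replicate: their Spearman rho across genes was 0.789, against 0.960 to 0.989 for replicates of the other fetal groups. That library was closer to the 4 NF libraries (0.889 to 0.908), and the first abnormal library of day 35 was closer to the abnormal ones of day 30 (0.906 and 0.907). KRT8, a keratin of simple epithelium and trophectoderm, was at 2202 and 1679 CPM (counts scaled to a common library size) in the abnormal libraries of day 30 and at 4542 in the first of day 35. It was at 186 in the second, at 152 to 318 in the 6 normal and at 33.4 to 67.8 in the 4 NF libraries. The list of 9 trophectoderm and inner cell mass genes summed to 2814, 2228, 5493 and 278 CPM in the 4 abnormal libraries against 258 to 454 in the normal ones. Most of each sum was KRT8 and a second keratin, KRT18, so it largely repeats the KRT8 values. GATA6 was at 177, 194, 81.3 and 16.2 CPM against 23.2 to 33.4 in normal libraries. GATA3 was at 36.3, 33.4, 36.1 and 2.7 CPM against 7.48 to 17.6, and SOX2 at 83, 49.2, 23.4 and 0 against 29.4 to 40.5. CDX2 was at 2.62, 2.57, 0 and 0 CPM against 0 to 2.76, and NANOG was at most at 1.31 in any fetal library. TEAD4 was at 17.9, 18.8, 13.8 and 56.6 CPM against 22.7 to 30.8. POU5F1, the defining pluripotency gene of that list, was at 0 in all 4 and at most at 0.874 CPM in any fetal library. The part that this difference in tissue plays in the results was not tested. EIF1AY, a Y-linked gene, was at 0 in both abnormal libraries of day 35 and in the first NF library of day 30, although all 3 were labelled male. It was at 33.5 CPM in the NF library labelled female and at 20.5 to 52.9 in the remaining male ones. At day 35 the 3 normal libraries held it at 20.5 to 31.1 CPM. Sex or sample identity therefore cannot be told apart from the abnormal label at day 35. This bears on every comparison that uses the abnormal libraries of day 35, the interaction included.

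On the per-length TPM scale (a length-scaled share of all transcripts) HSP90AB1, the constitutive cytosolic Hsp90, had the highest mean of all members over the 14 fetal libraries, 1870 TPM. The highest lectin chaperone was CALR, which binds calcium in the ER lumen, at 679 TPM, the highest mitochondrial chaperonin was HSPE1 at 668 and the highest Hsp70 was HSPA5, the ER protein also called BiP, at 587. Highest in their roles were also DNAJA1, a general J protein of the cytosol, with 533 TPM, the isomerase PDIA6 with 502, the chaperonin subunit CCT3 with 372 and HSPB1, the small heat shock protein Hsp27, with 235. Lower leaders were DNAJC7 (86.1 TPM), the exchange factor HSPBP1 (80.2), DNAJB11 of the ER (68.8) and HSPBAP1 (4.02). Summed over members, the cytosolic and remaining class reached 5631 to 8789 TPM in a fetal library, the ER class 2425 to 5523 and the mitochondrial class 885 to 1843. The lowest sum of each class lay in a normal library of day 35, where all 3 libraries were below every NF library of the same day.

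**Figure D1:**
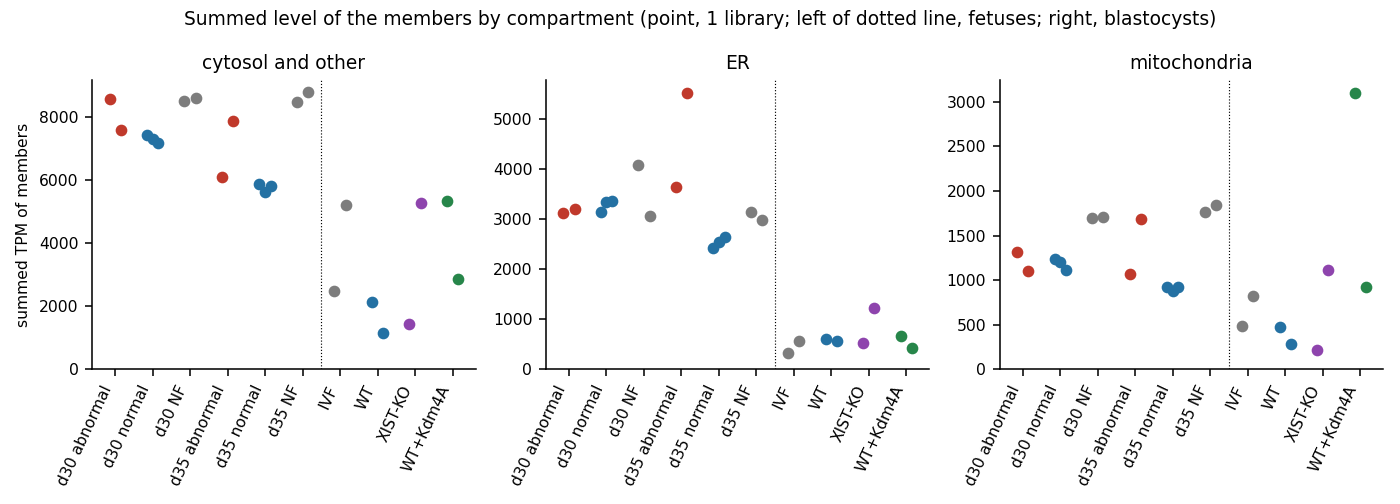
Summed TPM of the members by compartment in each library, fetal groups left of the dotted line and blastocyst groups right of it. At day 35 the 3 normal libraries sit between 2425 and 2654 TPM for the ER class, below the abnormal (3639 and 5523) and NF (2993 and 3157) libraries.

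Abnormal clones were first set against normal ones. At day 30, 8 of 76 tested members rose in abnormal fetuses (10.5%) and 4 fell (5.26%), by edgeR's quasi-likelihood test at an adjusted p under 0.05. Of all 9911 genes tested, 8.93% rose and 6.46% fell, 15.4% in all, so the members' shares were near the background. At day 35, 25 rose (32.9%) and 6 fell (7.89%), against a background of 10.9% rising and 12.3% falling, 23.2% in all. The members' median log2 fold change was 0.16 at day 30 and 0.48 at day 35, beside -0.02 and 0.00 over all genes. The 7 members not tested in fetuses were too low to pass the filter: CCT8L2, DNAJB13, DNAJB6, DNAJC22, DNAJC5B, HSPB2 and HSPB9. DNAJB6 had only 1 of its 10 annotated transcripts matched.

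The split shifted on the TPM scale. With limma on log2(TPM + 1), 5 members rose and 10 fell at day 30, and 12 rose and 14 fell at day 35. Of all 9911 genes, 542 rose and 1412 fell at day 30, and 497 rose and 2382 fell at day 35. The same scaling moved the median of all genes to -0.27 and -0.32, while that of the members was -0.12 and 0.16. The members' median lay above that of all genes on both scales and at both days.

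**Figure D2:**
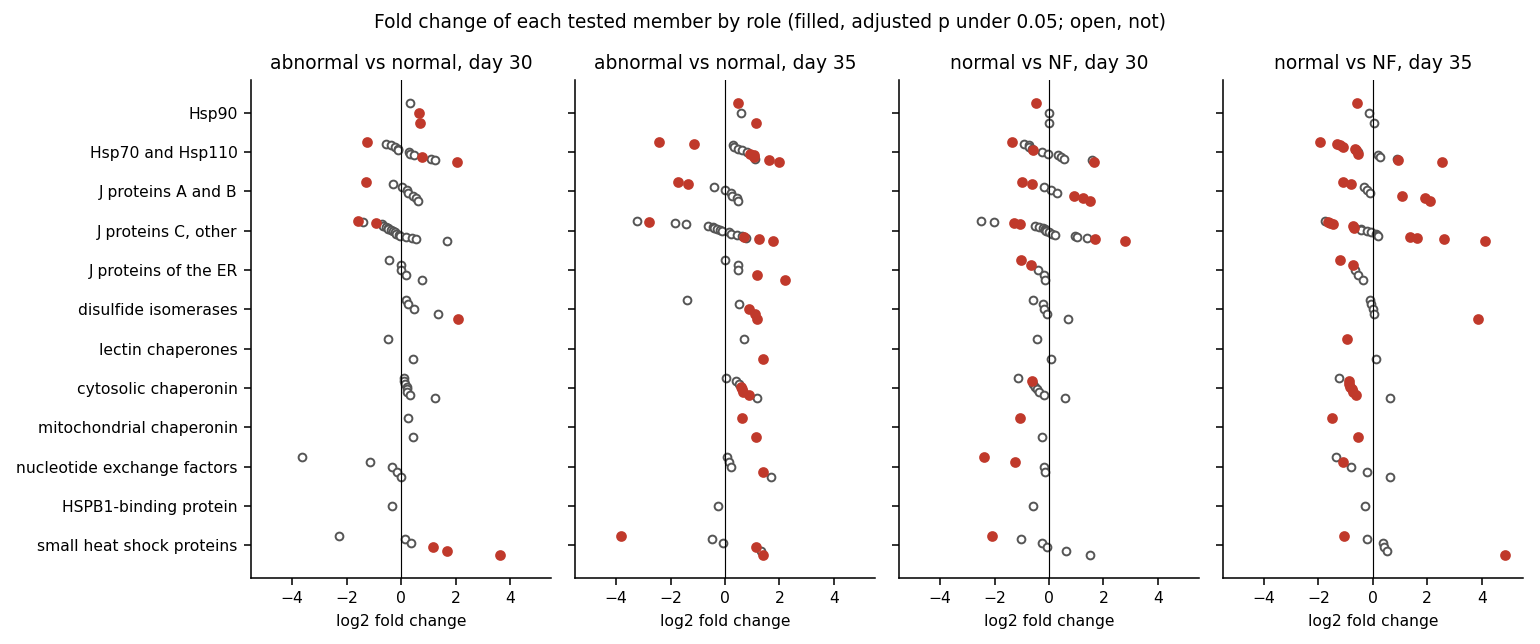
Log2 fold change of each tested member, grouped by role, for abnormal against normal and normal against NF at day 30 and day 35; filled points passed an adjusted p under 0.05. At day 35 the members of the ER and of both chaperonins that passed lie right of 0 in abnormal against normal.

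Of the 15 ER chaperones tested, 9 rose and none fell in abnormal fetuses of day 35, with a median log2 fold change of 0.92, where edgeR found 10 rising and none falling at an unadjusted p under 0.05 and DESeq2 called 9 and 0. In TPM 8 rose and 1, PDIA2, fell. HSPA5, which holds nascent proteins in the ER and senses the unfolded protein load, was at 3153 and 3016 CPM in the abnormal libraries of day 35, at 797, 760 and 778 in the normal and at 1182 and 1275 in the NF ones. The 3 groups did not overlap, and the 2 abnormal libraries were close to each other although their rho across genes was 0.789. The log2 fold change was 1.99 ± 0.18 (SE, adjusted p = 0.000132). The gene lies on chromosome 1 at 265930044-265934959 (Sscrofa11.1). At day 30 the same gene was at 1701 and 1515 CPM in abnormal and 879, 985 and 996 in normal libraries, a smaller rise of 0.75 ± 0.18 (adjusted p = 0.0197). NF libraries of day 30 were at 1773 and 1108, spanning the abnormal pair and above every normal library.

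HSP90B1, the Hsp90 of the ER, was at 1591 and 2142 CPM in the abnormal libraries of day 35 and at 823 to 879 in the normal ones. It rose by 1.14 ± 0.18 in log2 (adjusted p = 0.00179), and both abnormal libraries were above every other library of that day. CANX (calnexin), the membrane-bound lectin that holds glycoproteins until they fold, had 730 and 424 CPM against 194 to 248, a rise of 1.39 ± 0.21 (adjusted p = 0.00165). The NF libraries, at 427 and 432, lay between the 2 abnormal values. CALR, its soluble counterpart, was at 1119 and 2201 CPM in abnormal and 935 to 1112 in normal libraries, which did not pass (0.70 ± 0.28, adjusted p = 0.098).

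Of the disulfide isomerases, which form and shuffle disulfide bonds, 3 of 5 rose at day 35. PDIA4 was at 843 and 1249 CPM against 466 to 495 (1.11 ± 0.20, adjusted p = 0.00305), and PDIA3, which works on glycoproteins beside the lectins, at 787 and 1101 against 487 to 518 (0.89 ± 0.18, adjusted p = 0.00686). PDIA5 was higher in abnormal fetuses at both days. It was at 127 and 215 CPM at day 30 against 38.9 to 42.2 in normal libraries (2.09 ± 0.25, adjusted p = 0.000692), and at 95.5 and 129 at day 35 against 47.5 to 49.8 (1.18 ± 0.26, adjusted p = 0.00884). Its NF values were 75.2 and 45.6 at day 30 and 47.5 and 47.2 at day 35, so at day 35 the normal and NF libraries shared a level that both abnormal ones exceeded. The 8 liver markers summed to 49.8 and 1720 CPM in the abnormal libraries of day 30 and to 73.1 to 105 in the normal ones, with 5 of 8 passing as higher. The second abnormal library thus held the most of both, and without it PDIA5 was higher by 1.66 in log2 (adjusted p = 0.00878). At day 35 the liver markers were at 46 and 21.6 CPM in abnormal and 167 to 238 in normal libraries. The 8 erythroid markers measured were at 395 and 1550 CPM in abnormal and 1283 to 2899 in normal libraries of day 30, and at 2246 and 0 against 1324 to 2804 at day 35. The part of either list in the result was not tested. PDIA6 did not pass at either day. HSPA13, an Hsp70 of the ER whose clients are poorly known, was at 369 and 235 CPM at day 35 against 162 in all 3 normal libraries (0.92 ± 0.20, adjusted p = 0.00888). NF libraries of that day were at 269 and 231 CPM, so abnormal and NF overlapped and the normal ones were low.

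Among the 5 J proteins of the ER, 2 rose at day 35. DNAJC3, which also restrains the kinase that slows translation under ER stress, was at 66 and 72.8 CPM in abnormal, 28.8 to 31.7 in normal and 71.1 and 66.9 in NF libraries (abnormal against normal 1.18 ± 0.18, adjusted p = 0.00134). Abnormal and NF libraries overlapped and the normal ones were low. DNAJB9, a BiP partner strongly induced by XBP1, was at 336 CPM in the first abnormal library and 37.8 in the second, against 41.9 to 45.2. Its value of 2.21 ± 0.52 (adjusted p = 0.0125) rests on that first library and turned to -0.22 without it. DNAJB11 did not pass.

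**Figure D3:**
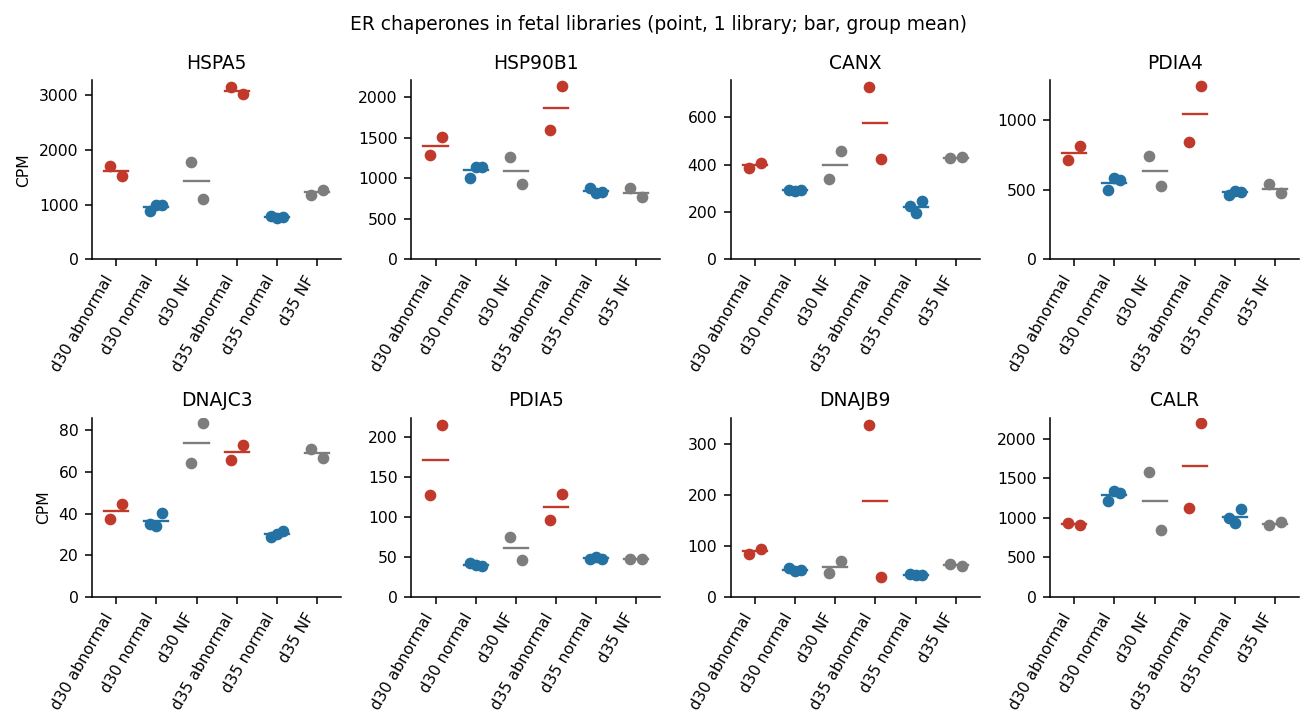
CPM of 8 ER chaperones in each fetal library, with the group mean as a bar. HSPA5 and HSP90B1 are highest in both abnormal libraries of day 35, PDIA5 is high in all 4 abnormal libraries, and DNAJB9 is high in 1 library.

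Other genes of ER folding and the unfolded protein response, 34 tested and not members, were counted beside them: 10 rose and none fell at day 30, and 13 rose and 3 fell at day 35. At an unadjusted p under 0.05, 1 fell at day 30, and DESeq2 called 13 rising and none falling. In TPM the counts were 3 rising and 1 falling at day 30 and 11 and 6 at day 35, and leaving out any library of the 2 groups left 2 or 3 rising at day 30. XBP1, the transcription factor of the response, was at 266 and 236 CPM in abnormal libraries of day 30 against 118 to 131, and at 612 and 267 at day 35 against 197 to 205. TRIB3, a pseudokinase induced downstream of ATF4, was at 34.5 and 24.3 CPM at day 35 against 0.592 to 0.913 (5.37 ± 0.96, adjusted p = 0.00336). ERO1A, the oxidase that recharges the disulfide isomerases and that also responds to low oxygen, was at 156 and 222 CPM at day 30 against 21.2 to 29.4. At day 35 it was at 286 in the first abnormal library and 35.1 in the second, against 11.4 to 17.8. Between NF and normal fetuses of day 35, 10 of the 34 were higher in NF and 5 lower. TRIB3 was at 45.7 and 91.2 CPM in NF libraries of that day, XBP1 at 317 in both and ERO1A at 32 and 28, whereas CRELD1, chosen after its values were seen, was at 7.53 and 7.69 against 26.5 to 39.7 in normal ones.

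Of the 6 mitochondrial chaperones, 4 rose at day 35 and none fell by edgeR, also at an unadjusted p under 0.05, or by DESeq2, but on the TPM scale 1 rose and 1 fell, while at day 30 none rose and DNAJC19, a J protein of the import motor, fell (40.6 and 27.4 CPM against 60.7 to 67.6, -0.91 ± 0.28, adjusted p = 0.0466). At day 30 edgeR had 1 mitochondrial member rising at an unadjusted p under 0.05 and DESeq2 called 2. HSPA9 (mortalin, chromosome 2 at 140515239-140532164), the matrix Hsp70 that pulls proteins in and folds them, was at 739 and 820 CPM in abnormal, 267, 255 and 242 in normal and 922 and 1065 in NF libraries of day 35. The groups did not overlap, with abnormal between normal and NF, and abnormal exceeded normal by 1.61 ± 0.15 (adjusted p = 0.00016). At day 30 HSPA9 was at 388 and 443 against 318 to 352 CPM, which did not pass (0.31, adjusted p = 0.19).

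HSPD1 and HSPE1 encode Hsp60 and its lid Hsp10 and lie next to each other on chromosome 15, 520 bases apart. HSPD1 was at 360 and 874 CPM in abnormal libraries of day 35 against 274 to 283 (1.12 ± 0.27, adjusted p = 0.0137), and HSPE1 at 246 and 294 against 158 to 184 (0.64 ± 0.17, adjusted p = 0.0222). NF libraries of that day were at 753 and 847 CPM for HSPD1 and at 246 and 258 for HSPE1. DNAJC15, a J protein of the inner membrane, had 28.8 and 75.5 CPM against 18 to 23.4 (1.26 ± 0.38, adjusted p = 0.0363). In HSPD1 and DNAJC15 the second abnormal library was much the higher of the pair.

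In the cytosolic chaperonin, the 8-subunit ring that folds actin and tubulin, CCT2, CCT4, CCT7 and CCT8 passed at day 35, with log2 fold changes of 0.60 to 0.89. CCT8 was at 401 and 688 CPM against 278 to 319 and CCT4 at 495 and 658 against 360 to 407. NF libraries, at 504 and 573 for CCT8 and 665 and 730 for CCT4, were also above every normal one. All 8 tested chaperonin genes had a fold change above 0 at both days by edgeR, but on the TPM scale only 2 of 8 did at day 30 and none passed. At day 30 none of the 8 passed by edgeR, none had an unadjusted p under 0.05, and DESeq2 called 1. CCT3, CCT5 and CCT6A overlapped between groups at day 35, since the first abnormal library was below or at the normal level (CCT5 428 CPM against 449 to 545) and the second far above (979).

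HSP70.2, the heat-inducible Hsp70 with the synonyms HSPA1A and HSPA1B, was at 1209 and 981 CPM in abnormal libraries of day 30, at 265, 294 and 235 in normal and at 160 and 255 in NF ones. Both abnormal libraries were above every other fetal library, and the fold change was 2.05 ± 0.28 in log2 (adjusted p = 0.00168). At day 35 it was at 371 and 175 CPM against 192 to 214 and 338 and 258 in NF, with the abnormal pair spanning both other groups (0.46, adjusted p = 0.272). HSP70.2 lies on chromosome 7 at 23925929-23927854, inside the annotated span of its close relative HSPA1L (23909960-23938678), and reads of such near-identical genes may be split between copies, so the value of each copy is uncertain. HSPA1L was at 4.37 and 5.99 CPM at day 30 against 1.83 to 2.58, which did not pass.

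HSPA8, the constitutive Hsc70, had 333 and 1225 CPM in the abnormal libraries of day 35, on either side of the normal ones at 571 to 711, and did not pass (0.30, adjusted p = 0.619). HSPH1, an Hsp110, split in the same way, with 99 and 445 CPM against 163 to 180. HSPA4, another Hsp110, was at 275 and 842 against 253 to 274 and passed (1.07 ± 0.34, adjusted p = 0.0406), with 1 abnormal library barely above normal. Its NF libraries of that day were at 578 and 738. HSPA2, best known from testis, was at 40.3 and 37.8 CPM against 17.8 to 19.8 (1.05 ± 0.26, adjusted p = 0.0163). HSP90AB1 was at 6992 and 7270 CPM at day 30 against 4378 to 4498 (0.69 ± 0.20, adjusted p = 0.0406). HSP90AA1, the inducible Hsp90, rose at day 30 by 0.64 ± 0.15 (3374 and 2846 CPM against 1883 to 2078, adjusted p = 0.0189) and at day 35 by 0.48 ± 0.15 (adjusted p = 0.0435). On the TPM scale HSP90AA1 passed at neither day and HSP90AB1 did not pass at day 30. Of 26 other genes of the HSF family and cytosolic co-chaperones, edgeR called none at day 30 (1 at an unadjusted p under 0.05, and DESeq2 called 1). At day 35 it called 5 rising and none falling (DESeq2 6 and none, 3 and 1 on the TPM scale), among them TCP1, a further chaperonin subunit, at 0.89 ± 0.28 (adjusted p = 0.0398) and SUGT1, an Hsp90 partner, at 0.96 ± 0.21 (adjusted p = 0.00903). TCP1 was at 353 and 866 CPM in abnormal, 304 to 337 in normal and 750 and 912 in NF libraries of day 35. The second abnormal library was much the higher of that pair.

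Small heat shock proteins hold unfolding proteins without ATP. At day 30, 3 of 6 rose. HSPB7, enriched in heart, was at 14.4 and 21 CPM against 1.21 to 1.66 (3.62 ± 0.65, adjusted p = 0.00584). The 7 heart markers summed to 313 and 808 CPM in the same abnormal libraries and to 1196 to 1881 in the normal ones. Of the 6 heart markers tested, 2 passed as higher in abnormal fetuses and none as lower, so the called markers and the sum differed in direction. Their part in the result was not tested. HSPB8, which acts with BAG3 in clearing misfolded protein by autophagy, was at 55.9 and 38.5 CPM in abnormal, 13.7, 13.2 and 17 in normal and 55.8 and 70 in NF libraries (1.69 ± 0.26, adjusted p = 0.00285). HSPB11, in fact a subunit of the ciliary transport complex, was at 21.8 and 19.7 CPM, above every normal and NF library of that day (1.18 ± 0.32, adjusted p = 0.0297) and also rose at day 35, by 1.40 ± 0.33. There it was at 25.7 and 10.8 CPM against 6.89 to 8.29, the second abnormal value resting on 4 counts. HSPB1 passed at day 35 only, at 189 and 183 CPM against 59.7, 84.9 and 108 (1.15 ± 0.35, adjusted p = 0.0373).

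**Figure D4:**
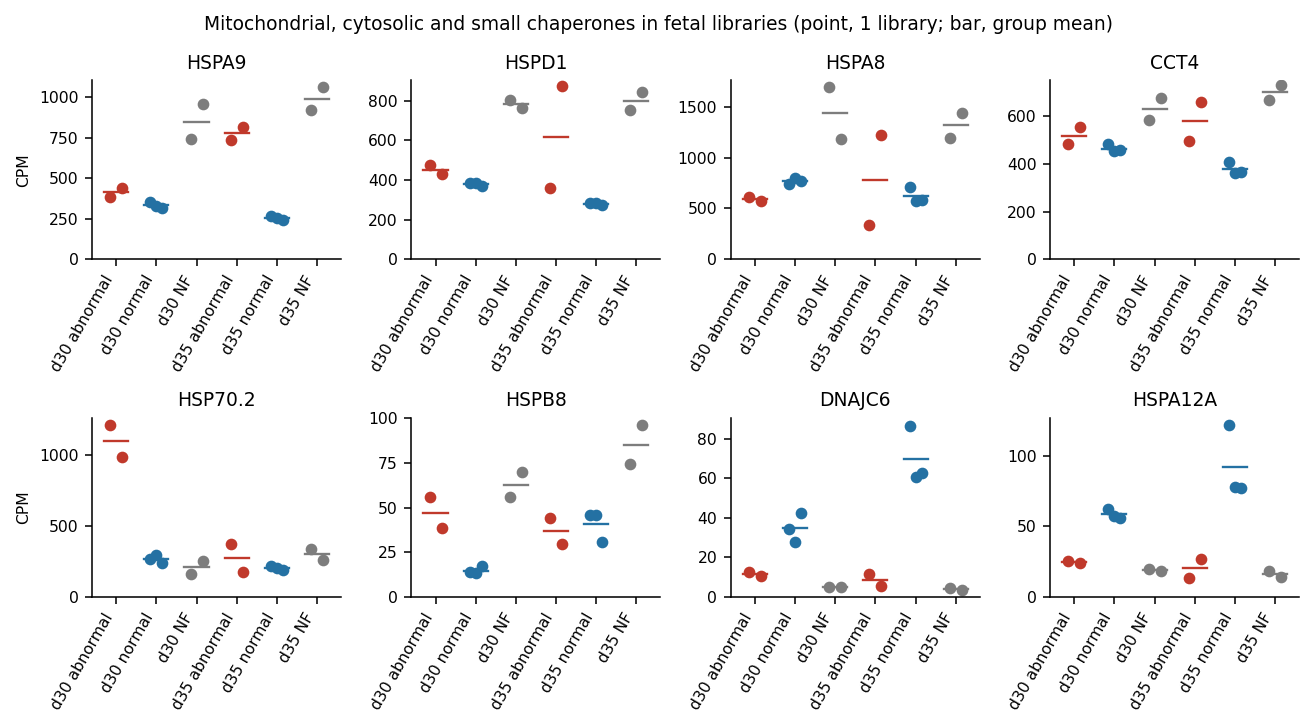
CPM of 8 mitochondrial, cytosolic and small chaperones in each fetal library, with the group mean as a bar. HSP70.2 is high only in the abnormal libraries of day 30, HSPA9 orders as normal, abnormal, NF at day 35, and DNAJC6 and HSPA12A are highest in normal libraries.

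The members that fell in abnormal fetuses include several best known from 1 tissue. DNAJC6 (auxilin), the J protein that strips clathrin from vesicles at synapses, was at 12.7 and 10.7 CPM at day 30 against 34.2, 27.6 and 42.3 in normal libraries, and at 11.5 and 5.4 at day 35 against 86.6, 60.6 and 62.6. The falls were -1.57 ± 0.29 (adjusted p = 0.0067) and -2.81 ± 0.34 (adjusted p = 0.000487), and NF libraries were lower still, at 3.49 to 5.05. HSPA12A, an atypical Hsp70 most abundant in brain, was at 25.8 and 23.9 CPM against 55.7 to 62.5 at day 30 and at 13.4 and 27 against 77.2 to 122 at day 35 (-1.24 ± 0.28 and -2.43 ± 0.33). The 8 neuron markers measured moved alongside: they summed to 581 to 655 CPM in abnormal, 2138 to 2730 in normal and 547 to 906 in NF libraries of day 30, and to 304 to 426, 3143 to 5435 and 481 to 495 at day 35. None of the 8 was at 0 throughout a fetal group. Their part in the result was not tested.

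DNAJA4 was at 19.7 and 15.4 CPM against 35.5 to 49.6 at day 30 (-1.28 ± 0.27, adjusted p = 0.0105) and fell by 1.74 ± 0.29 at day 35. DNAJB5 was at 26.5 and 18.9 CPM against 59.8 to 66.9 at day 35 (-1.37 ± 0.32, adjusted p = 0.0111). HSPA12B, an endothelial Hsp70, was at 57.9 and 48.6 CPM against 103 to 142 at day 35 (-1.14 ± 0.21, adjusted p = 0.00402), where the 7 endothelial markers summed to 32.4 and 172 CPM against 658 to 744. At day 30 those markers ran the other way, at 867 and 1258 against 527 to 572, and HSPA12B did not pass. HSPB3, a small heat shock protein of muscle, was at 0 and 5.4 CPM in the abnormal libraries of day 35 and at 15.8, 10.7 and 13.2 in the normal ones. These are 2 counts against 206, a ratio of summed levels of 19.9 in favour of normal (exact 95% counting interval 5.45 to 166, for counting error only). The 10 skeletal muscle markers summed to 69.8 and 728 CPM there against 1454 to 2716, with TNNT3 at 0 in both abnormal libraries. The part of either marker list in these results was not tested.

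Most J proteins of the cytosol and the exchange factors did not pass between abnormal and normal fetuses. DNAJA1 was at 1080 and 828 CPM in abnormal and 768 to 862 in normal libraries of day 30, and at 515 and 774 against 512 to 561 at day 35, overlapping at both days. DNAJB1, the heat-induced partner of HSP70.2, was at 181 and 107 CPM against 92.1 to 108 at day 30 (0.56 ± 0.22, adjusted p = 0.109) and at 114 and 83.6 against 85.4 to 89.4 at day 35. HSPBP1 showed the spread of the day 35 pair, at 56 and 189 CPM on either side of normal (83.9 to 110). Of the 5 exchange factors none passed at day 30 by edgeR or DESeq2, with 2 falling at an unadjusted p under 0.05, and BAG4 alone passed at day 35. BAG6, a holdase for membrane proteins bound for the ER, was at 0 in 5 of 14 libraries scattered over 4 groups and at 3.86 to 28.8 CPM in the others.

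Called at both days were 7 members: HSPA5, HSP90AA1, HSPB11 and PDIA5 rose and DNAJA4, DNAJC6 and HSPA12A fell. The share of all genes called at both days was not computed, so this count has no background beside it. At day 30 HSP70.2, HSPB7, HSPB8 and PDIA5 passed in all 6 fits that left out 1 library, whereas HSPA5, HSP90AB1, HSPB11 and DNAJC19 passed in 1 of 6 and HSP90AA1 in 2. At day 35, 16 of 31 passed in all 5 such fits, among them HSPA5, HSP90B1, CANX, PDIA3, PDIA4, PDIA5, DNAJC3, HSPA9, HSPD1, DNAJC6 and HSPA12A. CCT7, DNAJC15, HSPA4 and HSPB3 passed in 1 of 5 and BAG4, HSPB1 and HSP90AA1 in 2. At day 30, 4 or 5 members rose and 0 to 3 fell when any library of the 2 groups was left out (4 rose and 2 fell without the first abnormal library, 5 and 0 without the second). Without the second abnormal library of day 35, 16 rose and 9 fell at day 30. At day 35, 33 rose and 11 fell without the first abnormal library, 26 and 10 without the second and 15 and 5 without the second normal one. In all fits with 1 library left out, calls over all genes rose or fell with those over members. Only 4 of the 31 calls of day 35 were also made when the spread was taken from these 5 libraries alone: HSPA5, HSPA9, DNAJC6 and HSPA12A. For the ER, 10 of 15 rose and none fell without the first abnormal library and also without the second, 9 rose without any normal one, and 1, HSPA5, from the 5 libraries alone.

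Whether the abnormal and normal difference changed from day 30 to day 35 was tested as an interaction. It passed for 6 of 76 members, 5 with a higher signed log2 fold change at day 35 (6.58%) and 1 with a lower one (1.32%), against 1.31% and 2.73% of all genes, 4.05% in all. HSPA5 and HSPA9, whose values are given above, differed more at day 35 by 1.23 ± 0.26 (adjusted p = 0.0303) and 1.30 ± 0.22 (adjusted p = 0.0121). DNAJC3 did so by 1.01 ± 0.25 (adjusted p = 0.0455). DNAJC14, a J protein involved in receptor transport (chromosome 5 at 21264438-21273235), was at 67.7 and 88.5 CPM in abnormal and 73.5 to 96.5 in normal libraries of day 30, and at 112 and 170 against 26.7, 46 and 50.2 at day 35 (interaction 1.92 ± 0.40, adjusted p = 0.0291). Its NF libraries of day 35 were at 112 and 133 CPM. BAG4, a nucleotide exchange factor that also binds death receptors, went from 4.37 and 3.85 against 7.38 to 11 CPM to 12.3 and 13.5 against 2.69 to 7.31 (interaction 2.53 ± 0.62, adjusted p = 0.0465). HSPB8 had overlapping groups at day 35, at 44.1 and 29.7 CPM in abnormal and 45.9, 46 and 31 in normal libraries (interaction -1.76 ± 0.38, adjusted p = 0.0335). Computed from TPM, 6 were higher and 3 lower, beside 171 and 523 of all 9911 genes. Leaving out the first abnormal library of day 30 left no interaction call, and leaving out any of the other 4 libraries of that day left 1. Without a normal library of day 35 there were 2 to 4, and fewer of all genes were called too. Leaving out either abnormal library of day 35 leaves 1 library in its group. More members and more of all genes then passed.

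Between day 30 and day 35 the normal libraries changed in 3 of 76 members, 2 rising (2.63%) and 1 falling (1.32%), against 5.35% and 3.84% of all genes, 9.19% in all. HSPB8 rose from 13.2 to 17 CPM to 31 to 46 (1.48 ± 0.23, adjusted p = 0.00954), DNAJC6 rose by 1.01 ± 0.23 (adjusted p = 0.0238), and DNAJC14 fell by 1.11 ± 0.25 in log2 (adjusted p = 0.0226). When the spread was taken from these 6 libraries alone 36 members passed, 8 rising and 28 falling. In that fit 1908 of all 9067 genes tested rose and 1727 fell. Without the first or the second normal library of day 30 the count of members was 0, and without the first of day 35 it was 1. In TPM 2 rose and 2 fell, beside 335 and 363 of all 9911 genes.

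Normal clones were next set against naturally fertilized fetuses. At day 30, 6 members were higher in normal clones (7.89%) and 14 lower (18.4%), with 14% and 15.3% of all genes called in these directions, 29.3% in all. At day 35, 11 were higher (14.5%) and 28 lower (36.8%), against 22.1% and 20.1%, 42.3% in all. The members' median log2 fold change was -0.19 and -0.40, beside 0.00 and 0.06 over all genes. On the TPM scale it was -0.14 and -0.47, and 6 members were higher and 8 lower at day 30. Of all 9911 genes 1224 were higher and 1006 lower there. These comparisons use the same normal libraries as those above, so a member high in abnormal and NF libraries alike appears in both. Of the 25 members higher in abnormal than normal fetuses at day 35, most were also called lower in normal than NF. They were CANX, CCT2, CCT4, CCT7, CCT8, DNAJC14, DNAJC2, DNAJC3, HSP90AA1, HSPA13, HSPA4, HSPA5, HSPA9, HSPD1 and HSPE1. The others of the 25 were not. The share of all genes with both calls was not computed, so this overlap has no background beside it.

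The mitochondrial and chaperonin genes were among the lower ones. HSPA9 was at 352, 332 and 318 CPM in normal and 742 and 958 in NF libraries of day 30 (-1.35 ± 0.15, adjusted p = 0.000256), and the gap was -1.96 ± 0.15 (adjusted p = 4.67e-05) at day 35. HSPD1 was at 283, 283 and 274 CPM in normal and 753 and 847 in NF libraries of day 35 (-1.52 ± 0.27, adjusted p = 0.00139). Of the 8 cytosolic chaperonin genes, 6 were lower at day 35, all but CCT6A and CCT6B, with log2 fold changes of -0.62 to -0.89. Hsp70 genes were lower in 7 of 13 cases, HSPA8 among them at 711, 571 and 585 CPM against 1194 and 1437 (-1.08 ± 0.38, adjusted p = 0.0418). DNAJC13, an endosomal J protein, was at 80.4 to 87.1 CPM against 269 and 254 (-1.65 ± 0.29, adjusted p = 0.00136), and DNAJC2, which works at the ribosome exit, at 48.6 to 62.7 against 140 and 168 (-1.47 ± 0.16, adjusted p = 0.000145). The ER genes were lower in 5 of 15 and higher in 1.

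Of the 6 members lower in abnormal than in normal clones at day 35, HSPA12B was not among those higher in normal clones than in NF fetuses, at 103, 116 and 142 against 106 and 95.7 CPM. DNAJC6 exceeded NF by 2.80 ± 0.30 at day 30 (adjusted p = 0.000219) and by 4.13 ± 0.32 at day 35 (adjusted p = 4.67e-05). HSPA12A did so by 1.64 ± 0.27 and 2.53 ± 0.28. DNAJB5 was at 57.6 to 63.1 CPM against 28.5 and 13.7 at day 30 and at 59.8 to 66.9 against 14.4 and 14.5 at day 35. HSPB3 was at 15.8, 10.7 and 13.2 CPM against 0.684 and 0.175 at day 35. PDIA2, a pancreatic isomerase, was at 6.73, 2.96 and 2.51 against 0.171 and 0.349 (3.85 ± 0.78, adjusted p = 0.00299). The 8 neuron markers were lower in NF than in normal libraries, as given above, and the 6 fibroblast markers were higher in NF at day 30 (40574 and 42626 CPM against 11402 to 14195) and at day 35 (30770 and 34772 against 15232 to 25798). The part of these lists in the result was not tested. At day 30 the 20 calls became 13 without the first NF library, in which EIF1AY was at 0, 11 without the second, 10 without the second normal one and 12 without either of the other normal ones. More were called without the second abnormal library of day 35. Calls over all genes moved in the same direction in each of these fits. At day 35 the 39 calls became 19 without the second NF library.

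Abnormal fetuses against NF fetuses gave 9 members higher and 9 lower at day 30, with 15.5% and 14.5% of all genes called (30.0% in all). At day 35 there were 11 higher and 4 lower, with 13.0% and 10.2% of all genes called (23.2% in all). HSP70.2 exceeded NF at day 30 by 2.40 ± 0.33 (adjusted p = 0.00125), HSPA1L by 2.83 ± 0.74 and HSPB7 by 3.38 ± 0.74. BAG2, an exchange factor that also blocks the ubiquitin ligase CHIP, had 1 count in the abnormal libraries of day 30 and 222 in NF ones, a ratio of 74 in favour of NF (exact 95% counting interval 13.1 to 2935). HSPA8 was lower, at 612 and 570 CPM against 1692 and 1185 (-1.28 ± 0.43, adjusted p = 0.0451). At day 35 HSPA5 was above NF by 1.33 ± 0.21 (adjusted p = 0.00392), HSP90B1 by 1.18 ± 0.20 (adjusted p = 0.00508) and HSPA2 by 1.96 ± 0.30 (40.3 and 37.8 CPM against 12.8 and 7.34, adjusted p = 0.00392). HSPB1 was above NF by 1.52 ± 0.40 and HSPB8 below it by 1.13 ± 0.30. On the TPM scale the median of all genes moved to -0.23 and -0.37. Of all 9911 genes, 937 were higher and 1893 lower at day 30, and 389 and 2085 at day 35. The balance of the members turned to 6 higher and 17 lower at day 30 and to 5 and 13 at day 35. With the size factors of DESeq2 in edgeR, 12 were higher and 6 lower at day 30. From the spread of these 4 libraries alone edgeR made no call at day 35, for members or for any of the 8578 genes tested. There were 8 members at an unadjusted p under 0.05. DESeq2 on all fetal libraries called 20 members, and of all 9911 genes 1825 higher and 1084 lower. The 15 calls of day 35 became 6 without the first NF library, 2 without the second and 40 without the second abnormal one. The 18 of day 30 became 7 without the first abnormal library, 9 without the second, 12 and 7 without the first and the second NF one and 37 without the second abnormal one of day 35.

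In the day 6 blastocysts 67 members were tested. No count at all was found in any of the 8 libraries for DNAJB13, DNAJB6, DNAJC5B, HSPA12B, HSPA1L, HSPB2, HSPB7 and HSPB9. HSP90AB1 was again the highest member, with a mean of 736 TPM. The highest chaperonin gene was CCT3 (535 TPM), the highest Hsp70 HSPA9 (395) and the highest mitochondrial chaperonin gene HSPD1 (308). PDIA4 had 94.7 TPM, DNAJA1 91.2, DNAJC15 64.5, BAG2 45.2 and CALR 34.1, and among small heat shock proteins the highest was HSPB3 at 5.76. Fetal and blastocyst libraries were built differently and were not tested against each other. Blastocyst replicates varied far more than fetal ones, with a biological coefficient of variation of 0.893 against 0.29.

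Cloned WT blastocysts exceeded IVF ones in 4 of 67 members (5.97%) and were lower in none, with 4.28% and 1.42% of all genes called, 5.71% in all. At an unadjusted p under 0.05 edgeR had 12 members lower, and DESeq2 called 8 lower. In TPM 3 were higher and 2 lower, beside 452 and 487 of all 6958 genes. CALR was at 144 and 73.1 CPM in WT libraries and had no count in either IVF library. Against a floor of 3 counts over the IVF group, WT was 539-fold higher. The exact 95% lower limit was 437-fold and covers counting error only. CALR was at 118 and 102 CPM in XIST-KO and at 93.4 and 131 in WT+Kdm4A, so the 6 cloned libraries lay between 73.1 and 144 CPM and the IVF pair was apart. PDIA3 was at 158 and 258 CPM in WT and 1.38 and 11.2 in IVF libraries (5.04 ± 1.32, adjusted p = 0.048), but also low in XIST-KO (22.2 and 2.13) and WT+Kdm4A (14 and 5.03). DNAJA2 was at 233 and 491 CPM in WT and 23.7 and 45.5 in IVF (3.38 ± 0.85, adjusted p = 0.0414), and the exchange factor HSPBP1 at 219 and 203 against 33.3 and 10.2 (3.28 ± 0.80, adjusted p = 0.0385). HSPA8 was at 186 and 111 CPM in WT and 444 and 1234 in IVF and did not pass (-2.50 ± 0.79, adjusted p = 0.0873). Leaving out any library of the 2 groups left only the call of CALR or, without the second IVF library, none.

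WT+Kdm4A blastocysts exceeded WT ones in 6 members (8.96%) and were lower in none, against 2.95% and 4.48% of all genes, 7.43% in all. At an unadjusted p under 0.05 edgeR had 6 lower, and DESeq2 called 6 lower. In TPM 2 were higher and 1 lower, beside 220 and 540 of all 6958 genes. With the size factors of DESeq2 in edgeR 3 members were higher. HSPA9 was at 5830 and 2081 CPM in WT+Kdm4A and 218 and 130 in WT (4.51 ± 0.79, adjusted p = 0.0118), with 399 and 1322 in XIST-KO and 475 and 562 in IVF. HSPD1 was at 3419 and 1127 against 234 and 62.7 (3.94 ± 0.97, adjusted p = 0.0343), while its neighbour HSPE1 was at 35 and 19.3 against 69.4 and 52.4. CCT8 was at 1088 and 242 CPM against 54.4 and 67.4 (3.45 ± 0.91, adjusted p = 0.043), with 57.3 and 288 in XIST-KO and 267 and 495 in IVF. CCT3 was at 3360 and 2697 against 623 and 419 (2.54 ± 0.54, adjusted p = 0.0206). CCT7 ran the other way at 14.8 and 79.3 against 400 and 107 and did not pass. HSP90AA1, at 4532 and 2716 against 932 and 478, and the exchange factor BAG1, at 71.2 and 63.1 against 9.98 and 9.23, also rose (2.36 ± 0.62 and 2.80 ± 0.76). Without the first WT library none passed, nor without the second, while without the second WT+Kdm4A library 11 members did and without the first 3. HSPA9 and HSPD1 passed in 2 of these 4 fits and BAG1 in none.

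XIST-KO blastocysts differed from WT in no member by edgeR, where 0.417% of all genes were higher and 0.690% lower, 1.11% in all. There were 14 members with an unadjusted p under 0.05. DESeq2 called 12, 7 higher and 5 lower, and of all 6958 genes it called 430 higher and 515 lower. HSPA9 was at 399 and 1322 CPM against 218 and 130 (2.31 ± 0.72, adjusted p = 0.126) and PDIA3 at 22.2 and 2.13 against 158 and 258 (-4.10 ± 1.26, adjusted p = 0.122). Without the first XIST-KO library 6 members passed. The 9 trophectoderm and inner cell mass genes summed to 64059 and 65671 CPM in WT, 81425 and 84539 in XIST-KO, 47497 and 101219 in WT+Kdm4A and 35569 and 83016 in IVF libraries. NANOG and SOX2 were at 0 in the cloned groups. Their part in these results was not tested.

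**Figure D5:**
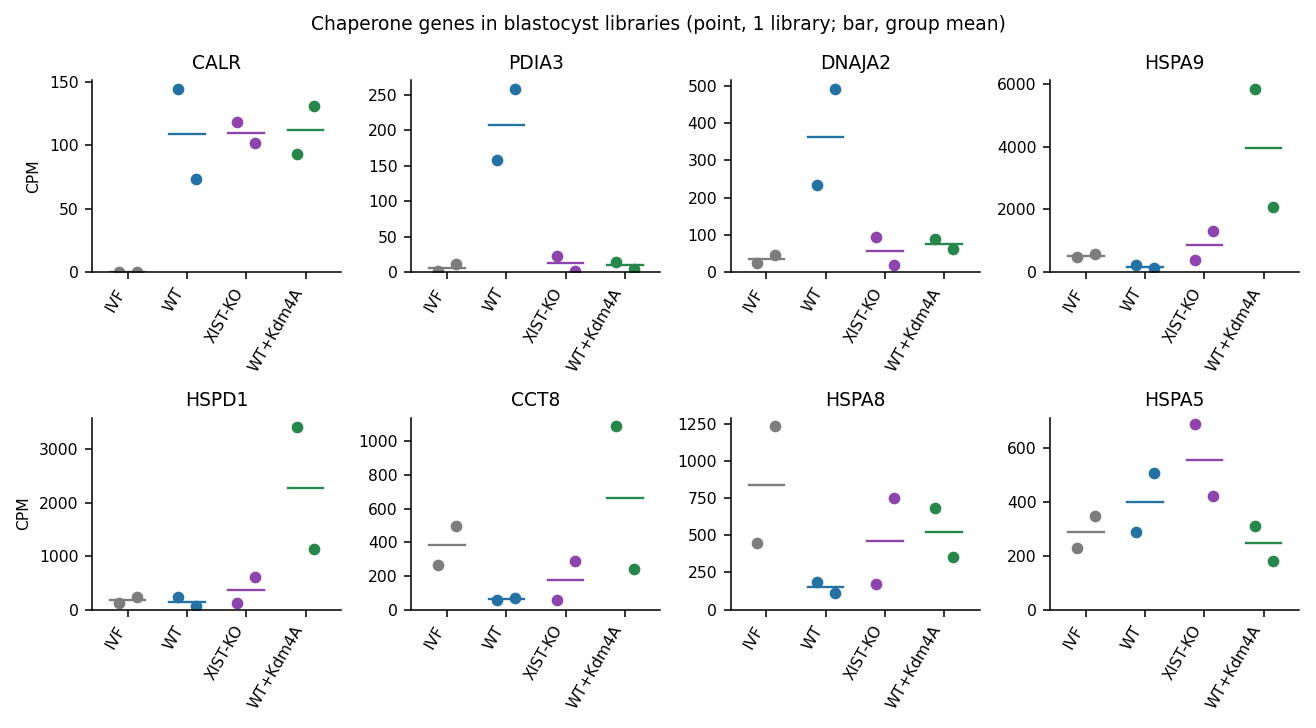
CPM of 8 members in each blastocyst library, with the group mean as a bar. CALR has no count in the IVF pair and 73.1 to 144 CPM in the 6 cloned libraries, PDIA3 and DNAJA2 are high in WT alone, and HSPA9 and HSPD1 are higher in both WT+Kdm4A libraries than in any other. CCT8 is highest in the first WT+Kdm4A library, at 1088, while the second, at 242, lies below both IVF libraries.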

How the data were processed

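RNA sequencing of 14 fetal and 8 blastocyst libraries of the pig was used. Per the labels, fetal libraries were built from total RNA and blastocyst libraries from cDNA. Per the submitters' processing notes the authors used RSEM 1.2.4 and the build Sscrofa11.1 (susScr11). The aligner is not given in the sources used here. The deposited tables hold an expected count and a TPM for each of 65927 RefSeq transcript records per library, per the file headers. Of these, 25305 records (38.4%) matched a gene by RefSeq accession without its version, holding 66% to 69% of the counts of fetal and 79.5% to 85% of those of blastocyst libraries. All annotated transcripts were matched for 58 of the 83 members, and 63 members rest on 1 record, so isoforms are not separated and some levels are partial.

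Expected counts were summed per symbol, rounded to whole numbers and fitted with edgeR 4.0.16 (R 4.3.3): filterByExpr, TMM scaling and the quasi-likelihood test on group means, with all groups of a stage in 1 fit. Benjamini-Hochberg adjustment ran over all 9911 genes tested in fetuses or 6958 in blastocysts, and the threshold was an adjusted p of 0.05. A log2 fold change is given ± SE. CPM are edgeR's, on TMM-scaled library sizes of matched genes. Alternatives were DESeq2 1.42.0, DESeq2's size factors in edgeR, no filter, a filter of 1 CPM in 2 libraries, limma 3.58.1 on log2(TPM + 1), a replicate block, only the groups compared, matching with the version (4758 records) and leaving out each library. The code was tested on simulated data with 100 genes changed at each size. For abnormal against normal, 14% (day 30) and 17% (day 35) of genes changed by 1 in log2 were recovered. Of those changed by 2, 54% and 55% were. For WT against IVF the shares were 0% and 1%, so a blastocyst member that did not pass may still differ. Fewer genes were changed in the simulation than were called in the data. The adjusted p depends on that share, so recovery in the data may differ from these values. Where a group had no count, the fold was computed against 3 counts in that group, and counting intervals are exact at 95%.

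Members, gene lists and the rule for named genes were chosen with earlier results of these data known. That rule took members fixed by role and, in each abnormal against normal comparison, up to 10 per direction by size of change that passed, did not overlap and averaged 1 or more in log2 CPM. Genes outside it, such as BAG2, DNAJC7, HSPA8 among blastocysts and the values of members that did not pass, were added after their values were seen.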

Additional observations from a re-analysis of the deposited data

Results flagged for a closer look

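For 6 members the difference between abnormal and normal fetuses was not the same at day 30 and day 35, by edgeR's quasi-likelihood test of the interaction. The signed log2 fold change was higher at day 35 by 2.53 for BAG4 (adjusted p = 0.0465), 1.92 for DNAJC14 (adjusted p = 0.0291), 1.30 for HSPA9 (adjusted p = 0.0121), 1.23 for HSPA5 (adjusted p = 0.0303) and 1.01 for DNAJC3 (adjusted p = 0.0455). BAG4 changed direction, lower in abnormal than normal libraries at day 30 and higher at day 35, where the abnormal libraries held 32 and 5 counts. For HSPB8 the interaction was -1.76 (adjusted p = 0.0335), with 55.9 and 38.5 CPM in abnormal and 13.2 to 17 in normal libraries of day 30 and overlapping groups at day 35. In the 10 fits that left out 1 library each, HSPA9 passed in 9, DNAJC14 in 5, BAG4 and HSPB8 in 3, and HSPA5 and DNAJC3 in 2.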

How the results depend on the processing

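Of 9 counts of called members and the 4 split by direction, changes over 1.5 times were as follows. Their cause was not tested, also where fewer genes or samples entered. For abnormal against normal at day 30 (8 higher, 4 lower), higher calls were 14 by DESeq2, 5 on TPM, 4 with the replicate block, 3 with version matching and 21 from only the groups compared, and lower calls 10, 1 and 11 on TPM, with version and from only these groups. At day 35 (25 and 6) higher calls were 12 on TPM, 13 with the replicate block, 7 with version and 2 from only these groups, and lower calls 14, 1 and 2 on TPM, with version and from only these groups. Normal against NF gave 13 with the block, 4 with version and 34 from only the groups at day 30 (20) and 17 with version at day 35 (39). Abnormal against NF gave 6 (day 30, 18) and 5 (day 35, 15) with version and 0 from only the groups at day 35. The interaction (6) gave 2 with the block, 1 with version and 2 from only its groups. Normal clones between days (3) gave 8 by DESeq2 and 36 from only the groups. WT against IVF (4) gave 9 unfiltered, 14 by DESeq2, 1 with version and 9 from only the groups. XIST-KO against WT (0) gave 6 unfiltered and 12 by DESeq2. WT+Kdm4A against WT (6) gave 3 with DESeq2's size factors, 16 unfiltered, 18 by DESeq2, 3 on TPM, 3 with version and 13 from only the groups. Version matching left 33 members among 2964 genes tested in fetuses and 27 among 2194 in blastocysts. The main fit had 76 among 9911 and 67 among 6958, so counts with version matching are out of fewer members. Normal against NF at day 35 had 565 genes higher and 567 lower with version matching. In other settings calls over all genes moved too. From only the groups compared, abnormal against normal had 1942 of 9027 genes higher and 1865 lower at day 30. At day 35 it had 86 and 253 of 9231. DESeq2 called 795 of 6958 genes higher and 697 lower for WT against IVF, and 723 and 852 for WT+Kdm4A against WT.

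Leaving out 1 library each gave 4 to 16 higher and 0 to 9 lower (abnormal against normal, day 30), 15 to 33 and 5 to 11 (day 35), 10 to 35 and 19 to 47 called (normal against NF, day 30 and day 35), 7 to 37 and 2 to 40 (abnormal against NF), 0 to 34 (interaction), 0 to 26 (normal between days), 0 to 1 (WT against IVF), 0 to 6 (XIST-KO) and 0 to 11 (WT+Kdm4A). Where these counts moved, calls over all genes moved in the same direction, so the swings are not particular to the members. DNAJB9 at day 35 turned to -0.22 without the first abnormal library, and HSPA8 and HSPH1 to -0.86 and -0.73 without the second. Members chosen by the rule for named genes turned in sign in 7 cases, none of them called, with these ranges when a library was left out: DNAJC14 (-0.38 to 0.01) and HSPB1 (-0.18 to 0.75) at day 30, turned without the first abnormal library, DNAJC3 at day 30 to -0.11 on TPM, HSP70.2 at day 35 (-0.23 to 0.91), turned without the first abnormal library, and HSPB8 at day 35 (-0.48 to 0.15), turned to 0.15 without the second abnormal and 0.01 without the first or second normal library. Of the other values of named members 461 kept direction and side of the threshold, 89 lost their call and 17 gained one. Deviations from the group mean correlated at r -0.08 to 0.17 (median 0.01) over 31 same-numbered fetal pairs. Fetal pairs with other numbers were at -0.17 to 0.11 (median -0.01). Over 12 same-numbered blastocyst pairs r was -0.31 to 0.12 (median -0.17), and with other numbers -0.12 to 0.31 (median 0.17). With 2 libraries in a group these values mirror each other, so the 12 are not separate observations. The labels do not pair the samples, and the numbers are not taken as pairs. The second abnormal library of day 35, with 588882 counts, limits low members most: 1 count there is 2.7 CPM.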
